A study of Mus musculus with 18 samples.

Results

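Condensin and cohesin are ring-shaped protein complexes that fold chromosomes, and the transcripts of 10 of their subunits were compared between mouse prostate tumours and normal mouse prostate. The members were Smc2, Smc4, Ncapd2, Ncapg, Ncaph, Ncapd3 and Ncapg2 of condensin and Smc1a, Smc3 and Rad21 of cohesin. They were found as the probe sets of the array whose only gene symbol is one of these 10 names, which gave 26 probe sets of 45101 on the array and 10 genes of 18193 with at least 1 such probe set. No filter on low values was applied to them. All 10 genes also passed a filter on low values. It asks that 9 or more of the 18 arrays show the probe set brighter than their 40th percentile. Ncapg passed it through the 9 tumours alone, as it lay under that percentile on all 9 normal prostates.

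The series held 9 tumours of the TRAMP mouse and 9 normal prostates of the mouse, 1 array each. TRAMP mice carry the early region of the virus SV40 under the probasin promoter, which is active in prostate epithelium, so the viral tumour antigens are made in the epithelial cells and the tumours begin there. The normal tissue was the ventral and dorsolateral lobes. Strain, age and tumour stage are not given in the sources used here, and the labels do not say whether each array had an animal of its own, so the p-values rest on the scatter of these arrays, which may be technical. RNA from whole tissue was hybridised to Affymetrix arrays, which report a fluorescence intensity for each probe set, a group of short probes for 1 transcript. Every level below is log2(signal + 16) of the deposited intensity, and every difference is TRAMP tumours minus normal prostate on that scale. In whole tissue, fewer cells of a type and less RNA per cell cannot be told apart.

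Several arrays stood apart from their group. The spike-in control RNAs were bright, at 8.66 to 10.75, on TRAMP tumours 1 to 5 and normal prostates 1 to 6, and dim, at 4.91 to 5.27, on the other 4 tumours and 3 normal prostates. The mean of 5 seminal vesicle genes was 15.17 to 15.55 on tumours 3, 5 and 7, 11.21 and 11.27 on tumours 6 and 8, and 13.22 on normal prostate 9, against at most 8.64 on the other tumours and 8.05 on the other normal prostates, and 0 of these 5 genes passed the test between the groups. The mean of 5 prostate secretory genes, Pbsn, Msmb, Spink1, Azgp1 and Wfdc3, was 6.14 to 8.86 in tumours and 12.24 to 15.05 in normal prostate, except for 6.26 on normal prostate 9. The mean of 4 urothelium genes was highest on tumour 4, at 13.67, and on normal prostate 3, at 13.85, and that of 5 skeletal muscle genes on normal prostate 1, at 14.07. All 5 prostate secretory genes were lower in tumours (adjusted p 7.27e-05 to 0.031). All 4 measured adipocyte genes were also lower in tumours, with a median log2 difference of -4.14 and a mean level of 6.56 to 10.68 in TRAMP tumours and 6.91 to 13.94 in normal prostate. Of 5 myeloid genes, 3 (Aif1, C1qa and Laptm5) were higher in tumours, with a mean level over the 5 of 8.91 to 11.82 in TRAMP tumours and 7.43 to 10.09 in normal prostate. Among all genes, 7.89% were higher in tumours and 8.54% were lower. The part that other tissue on these arrays has in the results below was not tested. Counts of members called are given with and without those arrays, and sizes for some members.

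Condensin shapes mitotic chromosomes. The ATPases SMC2 and SMC4 form its arms in both of its versions. Condensin I adds the HEAT-repeat subunits NCAPD2 and NCAPG and closes the ring with the kleisin NCAPH, and condensin II adds NCAPD3, NCAPG2 and the kleisin NCAPH2. Condensin II is in the nucleus throughout the cell cycle, while condensin I reaches the chromosomes once the nuclear envelope has broken down. Cohesin holds sister chromatids together until anaphase and extrudes chromatin loops in interphase. Its ring consists of the ATPases SMC1A and SMC3 and the kleisin RAD21, and it is needed in cells that do not divide as well.

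Of the 10 members, 8 were higher in TRAMP tumours than in normal prostate and 0 were lower. Among all 18193 genes tested, 7.89% were higher and 8.54% were lower (limma, Benjamini-Hochberg adjusted p under 0.05). The 6 condensin genes that passed the test rose by 1.28 to 4.53 on the log2 scale, and the 2 cohesin genes that passed rose by 0.94 and 0.96. Every tumour lay above every normal prostate for 5 members, all in condensin, where 1.11% of all genes showed that separation. The median log2 difference was 2.58 over the 7 condensin genes and 0.94 over the 3 cohesin genes, beside a median of -0.0036 over all genes. Ncaph and Smc3 did not pass the test.

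**Figure D1:**
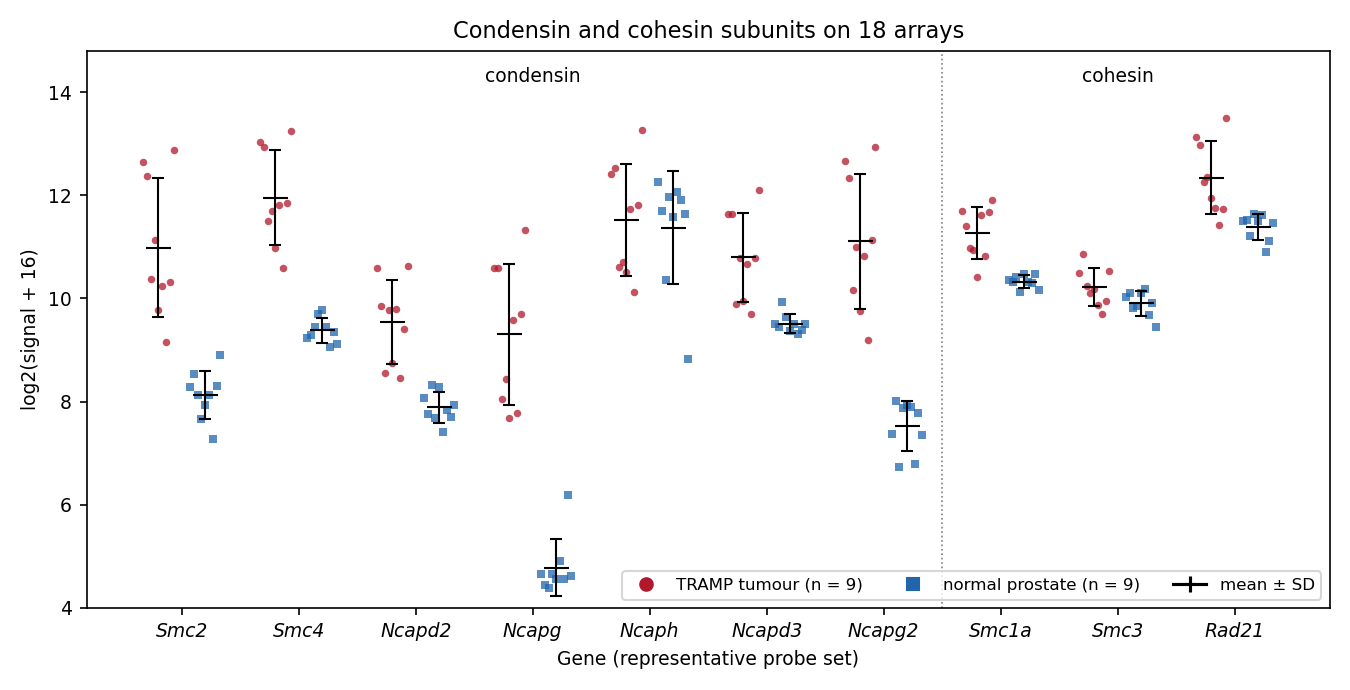
Level of each member on each array, as log2(signal + 16) of its representative probe set (red circles, 9 TRAMP tumours; blue squares, 9 normal prostates; black bars, mean ± SD). Tumours lie wholly above normal prostate for Smc2, Smc4, Ncapd2, Ncapg and Ncapg2, while the groups overlap for Ncaph, Ncapd3 and the 3 cohesin genes.

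The promoter sequences of 5 members are shown because cell cycle genes expressed late in the cycle often carry a short element called CHR just before their start, and the members with and without it can be set beside their values. Promoters of 8 of the 10 members were found in the RefSeq table of build GRCm38.p6, and those of Smc4 and Rad21 were not used here. The stretches are the 60 bases before the annotated start, 5′ to 3′ on the strand of the gene. Capitals mark a CHR (searched as TTTGAA, with TTCGAA as a variant and CTTGAA as another, on both strands) or a CCAAT box (searched as CCAAT on both strands, so that it reads ATTGG where it lies on the opposite strand). They cover chr5:45669865-45669924 on the plus strand for Ncapg, chr12:116405376-116405435 on the plus strand for Ncapg2, chr6:125191587-125191646 on the minus strand for Ncapd2, chr2:127133955-127134014 on the minus strand for Ncaph and chr19:53600336-53600395 on the plus strand for Smc3.
Ncapg: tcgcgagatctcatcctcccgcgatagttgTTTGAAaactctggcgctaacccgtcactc
Ncapg2: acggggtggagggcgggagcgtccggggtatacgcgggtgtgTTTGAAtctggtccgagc
Ncapd2: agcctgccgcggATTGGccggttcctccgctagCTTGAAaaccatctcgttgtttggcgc
Ncaph: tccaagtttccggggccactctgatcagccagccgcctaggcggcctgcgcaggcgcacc
Smc3: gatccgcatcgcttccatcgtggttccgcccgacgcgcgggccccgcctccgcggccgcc

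A CHR on the strand of the gene within 50 bases of the start was present in 3 of the 8 members, Ncapg, Ncapg2 and Ncapd2, with its first base 30, 18 and 27 bases before the start. Of 32851 promoters in the table, 2.5% held one there. In the whole 250 bases and on either strand, a CHR was found in 5 members, the other 2 being Smc2 and a second promoter of Ncapd3, and in 26.1% of all promoters. A CCAAT box in the same window was found in 4 members, Smc2, Ncapd2, Ncapg and Smc1a, and in 33.8% of all promoters. The letters searched for were not in the windows of Ncaph and Smc3. Smc2, Ncapd3 and Smc1a also rose, but had no CHR within 50 bases of the start, and their sequences are not printed above. A match is a description of the letters, and binding was not measured.

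Smc2, the ATPase arm shared by both condensins, had a level of 9.14 at the lowest, 10.38 at the median and 12.88 at the highest in TRAMP tumours, against 7.28, 8.13 and 8.89 in normal prostate. The lowest tumour lay above the highest normal prostate. Its log2 difference was 2.86 ± 0.45 (SE, n = 9 and 9; limma adjusted p = 0.000388), and 2 of its other probe sets rose by 2.33 and 2.63. The one at 2.63 lay under the 40th percentile of the array on 7 normal prostates. The remaining 2 also passed, but lay under the 40th percentile of the array on all 9 normal prostates and on 4 and 6 tumours. With every value under that percentile raised to it, they were 1.70-fold and 1.59-fold higher in tumours. These are not lower bounds, because values of tumours are raised too.

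Smc4, its ATPase partner, had levels of 10.60, 11.81 and 13.24 (lowest, median, highest) in TRAMP tumours and 9.05, 9.36 and 9.78 in normal prostate. The groups did not overlap, and normal prostates were tight around their median. Smc4 rose by 2.58 ± 0.31 on the log2 scale (limma adjusted p = 6.56e-05), and its other 2 probe sets rose by 2.56 and 3.22.

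Of the condensin I subunits, Ncapg showed the widest separation. This HEAT-repeat subunit had levels of 7.69, 9.58 and 11.32 (lowest, median, highest) in TRAMP tumours and 4.39, 4.61 and 6.20 in normal prostate. On all 9 normal prostates it lay under the 40th percentile of the array, where signals are called dim here and carry little information, while all 9 tumours were above it. Measured against that percentile, Ncapg was at least 4.54-fold higher in tumours. The fitted difference of 4.53 ± 0.46 (limma adjusted p = 2.25e-05) depends on the constant added before the logarithm and was 3.19 with 64 in place of 16. Its other probe set was dim on 9 normal prostates and 1 tumour. With dim values raised to the percentile it was 2.60-fold higher in tumours, which is not a strict bound.

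Ncapd2, the other HEAT-repeat subunit of condensin I, had levels of 8.46, 9.77 and 10.62 (lowest, median, highest) in TRAMP tumours and 7.41, 7.84 and 8.32 in normal prostate. The groups lay close together without overlap. Its representative probe set rose by 1.65 ± 0.28 on the log2 scale (limma adjusted p = 0.000721). The other probe set rose by 3.19 ± 0.45 (adjusted p = 0.000229) and was dim on 3 normal prostates. The size of the change thus differed between the probe sets.

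Ncaph, the kleisin that closes the condensin I ring, was the 1 condensin member that did not pass the test. Its levels were 10.13, 11.73 and 13.27 (lowest, median, highest) in TRAMP tumours and 8.83, 11.70 and 12.25 in normal prostate. The groups covered the same range, with 3 tumours above all normal prostates and 1 normal prostate below all tumours. The log2 difference was 0.16 ± 0.48 (limma adjusted p = 0.864), with a 95% interval of -0.85 to 1.16. That interval does not reach the fitted difference of Smc2, Smc4, Ncapd2, Ncapd3, Ncapg or Ncapg2. It does overlap the intervals of Ncapd2 (1.06 to 2.23) and Ncapd3 (0.69 to 1.87). The difference between Ncaph and the other members was not tested. The representative probe set carries the suffix _x_at, which marks probes that can match other transcripts, and the other probe set, without that suffix, gave 0.17 ± 0.47 (adjusted p = 0.857). On normal prostates Ncaph was 11.58 to 12.25 on 7 arrays, 10.36 on normal prostate 3 and 8.83 on normal prostate 9, the arrays high in urothelium and seminal vesicle genes. Without normal prostate 9 the log2 difference was -0.16 ± 0.40 (adjusted p = 0.822). Without normal prostate 9 and tumours 3, 5, 6, 7 and 8 it was 0.54 ± 0.43 (adjusted p = 0.396).

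The HEAT-repeat subunits of condensin II both rose. Ncapg2, its counterpart of Ncapg, had levels of 9.20, 11.0028 and 12.93 (lowest, median, highest) in TRAMP tumours and 6.74, 7.77 and 8.01 in normal prostate. The groups were more than 1 log2 unit apart at their nearest arrays. The difference was 3.59 ± 0.44 (limma adjusted p = 7.27e-05) on the only probe set of the gene.

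Ncapd3, the other HEAT-repeat subunit of condensin II, had levels of 9.69, 10.77 and 12.11 (lowest, median, highest) in TRAMP tumours and 9.31, 9.50 and 9.93 in normal prostate. Here 7 tumours lay above all normal prostates and the other 2 within their range. Ncapd3 rose by 1.28 ± 0.28 (limma adjusted p = 0.00469), and its other probe sets rose by 1.15 (adjusted p = 0.0454) and 1.60. The one at 1.60 was dim on 8 normal prostates and 3 tumours. With the split of the arrays by spike-in brightness in the fit, the probe set at 1.15 gave 1.09 and no longer passed, with an adjusted p of 0.0506. Ncaph2, the kleisin of condensin II and no member of the list, had a log2 difference of -0.03 ± 0.15 (adjusted p = 0.933), with levels of 10.44 to 11.28 in TRAMP tumours and 10.42 to 11.29 in normal prostate. Neither kleisin of condensin passed the test.

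The cohesin ring changed less. Smc1a, an ATPase arm of cohesin, had levels of 10.41, 11.40 and 11.91 (lowest, median, highest) in TRAMP tumours and 10.13, 10.33 and 10.48 in normal prostate. All tumours but tumour 5 lay above every normal prostate. Smc1a rose by 0.94 ± 0.18 (limma adjusted p = 0.0018), which is 1.92-fold. Its other 2 probe sets gave 1.72 (adjusted p = 0.0119) and 0.88 (adjusted p = 0.205). The one at 1.72 was dim on 6 normal prostates.

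Rad21, the kleisin that separase cuts at anaphase, had levels of 11.41, 12.26 and 13.49 (lowest, median, highest) in TRAMP tumours and 10.89, 11.50 and 11.64 in normal prostate. All tumours but tumour 7 lay above every normal prostate. Rad21 rose by 0.96 ± 0.25 (limma adjusted p = 0.0129), which is 1.94-fold. Its other 2 probe sets gave 1.74 (adjusted p = 0.00252) and 0.74 (adjusted p = 0.0958), the last with a suffix that marks probes shared with other transcripts. With the split of the arrays by spike-in brightness in the fit, that last probe set gave 0.82 and passed, with an adjusted p of 0.0261. The one at 1.74 was dim on 4 normal prostates.

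Smc3, the second ATPase of cohesin, had levels of 9.69, 10.18 and 10.86 (lowest, median, highest) in TRAMP tumours and 9.44, 9.92 and 10.18 in normal prostate. The groups overlapped, with 4 tumours above every normal prostate. The log2 difference was 0.31 ± 0.16 (limma adjusted p = 0.195), with a 95% interval of -0.02 to 0.65, and the other probe set gave 0.15 (adjusted p = 0.685). Without normal prostate 9 and tumours 3, 5, 6, 7 and 8, Smc3 was 0.54 ± 0.17 higher and passed (adjusted p = 0.0299), the single member whose call was gained by leaving out arrays.

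Read by probe set, 20 of the 26 were higher in tumours and 0 were lower, where 6.16% of all 45037 probe sets tested were higher and 5.32% lower. Every tumour lay above every normal prostate for 10 of the 26, against 0.866% of all probe sets. The 6 that did not pass were both of Ncaph, both of Smc3, 1 of Smc1a and 1 of Rad21, and all 6 had a difference above 0. Of the 26, 22 passed the filter on low values, and the other 4 belong to Smc2, Ncapg and Ncapd3. No gene had probe sets that passed in opposite directions.

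**Figure D2:**
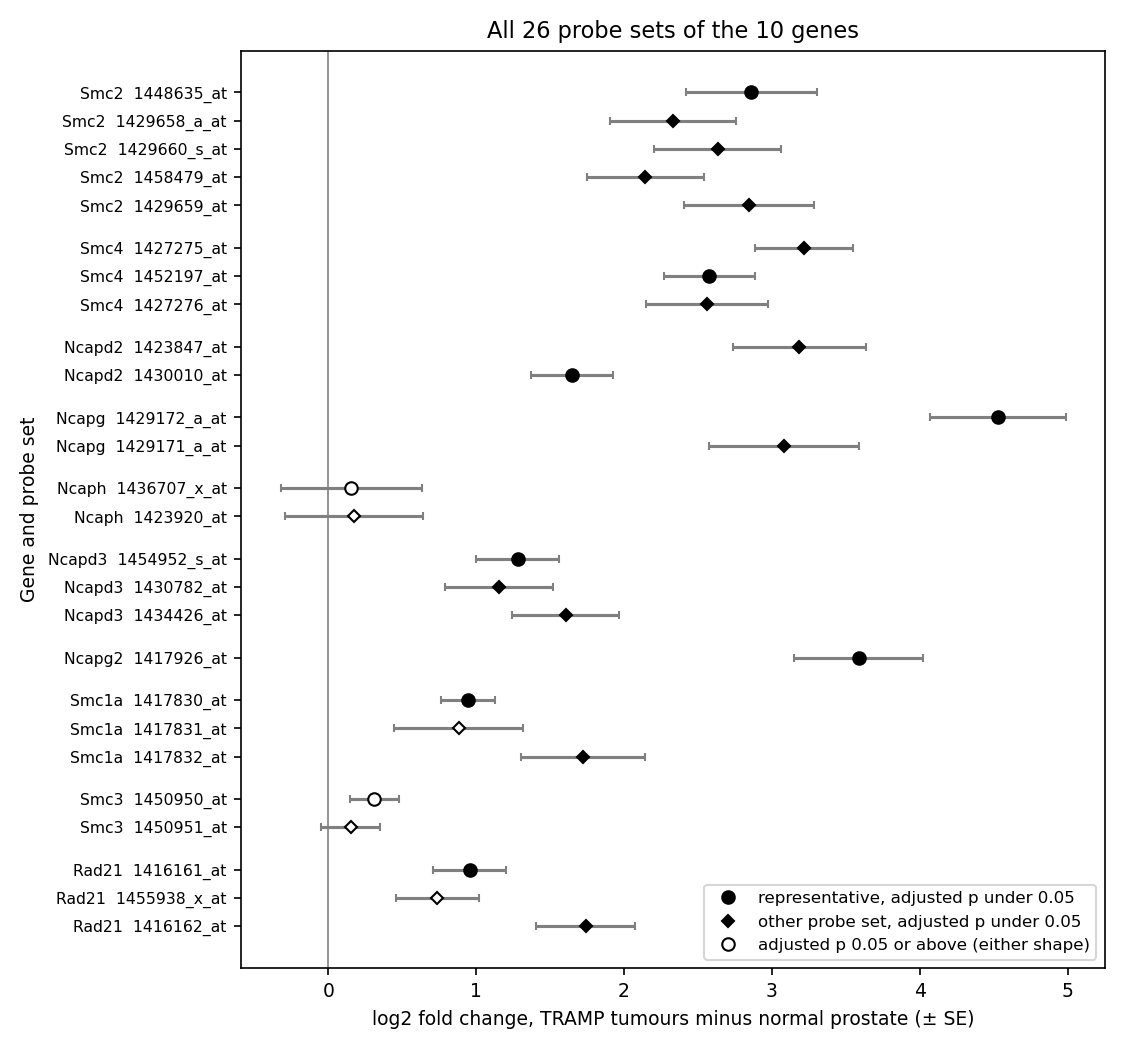
Log2 fold change, TRAMP tumours minus normal prostate, of every probe set of the 10 genes with its standard error (circles, representative probe sets; diamonds, other probe sets; filled, adjusted p under 0.05; open, 0.05 or above). Both probe sets of Ncaph and of Smc3 sit near 0, while all those of Smc2, Smc4, Ncapd2, Ncapg, Ncapd3 and Ncapg2 lie to the right at 1.15 or more.

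The 8 calls were also made on the 11 arrays with bright spike-in controls alone. Smc1a (limma adjusted p = 0.0488) and Ncapd3 (adjusted p = 0.0435) passed narrowly there. On the 7 arrays with dim controls, 0 genes were higher and 1 was lower among all 18193 (1983 had an unadjusted p under 0.05), so no member could be called. There the differences of Smc2, Smc4, Ncapd2, Ncapg, Ncapd3, Ncapg2, Smc1a and Rad21 were 2.48, 2.70, 1.75, 4.47, 1.41, 3.71, 1.20 and 0.94. All 8 were above 0. Without normal prostates 1, 3 and 9 and tumours 3, 4, 5 and 7, which were high in genes of other tissues, 8 members were called, an alternative chosen after the data were seen. Without normal prostate 9 and tumours 3, 5, 6, 7 and 8, the differences of the same 8 were larger than with all arrays. There Smc2 was at 4.23, Ncapd3 at 2.02 and Rad21 at 1.61.

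The tumours themselves differed widely, and the condensin genes ranked them in nearly the same order. The mean of the 6 condensin genes other than Ncaph, taken as a difference from the normal mean, was 1.28 at the lowest, 2.61 at the median and 4.32 at the highest in TRAMP tumours, against -0.40, 0.02 and 0.25 in normal prostate. Tumours 1, 2 and 9 were the 3 highest for all 7 condensin genes. Tumour 9 was the highest of all for 9 of the 10 members, the exception being Smc3, which was highest in tumour 2. Tumours 5 and 7 were among the 3 lowest for all 7 condensin genes and tumour 3 for 6. Those 3 lowest tumours are the ones with the highest level of seminal vesicle genes. Tumours 1 and 9, among the highest, and tumour 4 had the highest means of 5 neuroendocrine genes, at 10.58, 10.94 and 9.28. The other tumours had at most 7.56 and normal prostates at most 7.51. Tumour 2, also among the 3 highest for condensin, had the lowest neuroendocrine mean of all tumours, at 6.37. The mean of the 3 cohesin genes, taken the same way, was 0.10 to 1.44 in TRAMP tumours and -0.25 to 0.17 in normal prostate.

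**Figure D3:**
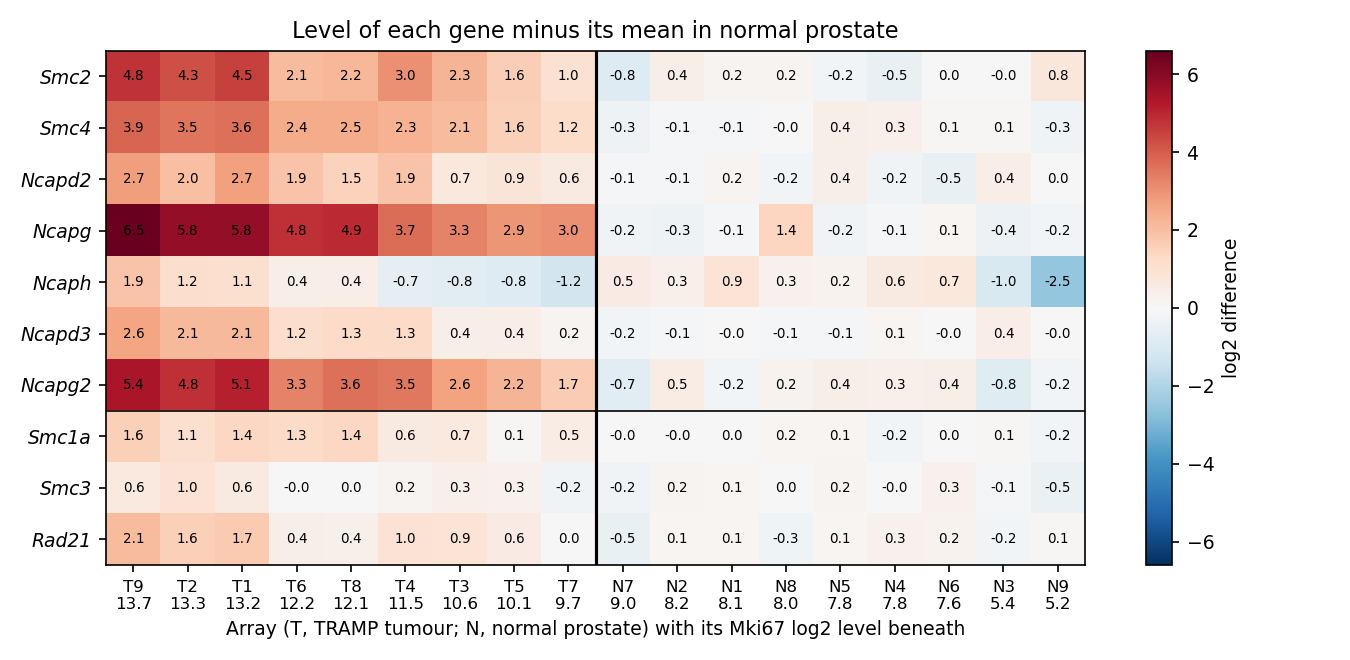
Log2 level of each member minus its mean in normal prostate, array by array (columns, with the Mki67 level beneath each; T, TRAMP tumour; N, normal prostate; red, above the normal mean; blue, below it), ordered by Mki67 within each group. Condensin genes other than Ncaph are above the normal mean on all 9 tumours, and Ncaph is above it on 5 tumours and furthest below it on normal prostate 9.

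Mki67, which codes for the protein that coats mitotic chromosomes and is made in cycling cells, was taken as a measure of dividing cells. Its level was 9.74 to 13.67 in TRAMP tumours and 5.19 to 9.01 in normal prostate. Within the 9 tumours, the slope of each gene on the Mki67 level was fitted over all 18192 other genes. All 7 condensin genes had a positive slope that passed the test, where 2.76% of all genes did (limma adjusted p under 0.05). None of the 3 cohesin genes passed, and no member had a negative slope that passed, where 2.59% of all genes did.

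The slopes of condensin genes, in log2 units of the gene for each log2 unit of Mki67, ran from 0.53 ± 0.09 for Ncapd2 (limma adjusted p = 0.0106) to 0.93 ± 0.08 for Ncapg (adjusted p = 0.00117). Ncaph, which did not pass the test between the groups, had a slope of 0.74 ± 0.08 (adjusted p = 0.00197) and so varied among tumours with the rest of condensin. Smc1a had a slope of 0.31 ± 0.08 (adjusted p = 0.0574), Rad21 one of 0.39 ± 0.12 (adjusted p = 0.0836) and Smc3 one of 0.17 ± 0.09 (adjusted p = 0.256). Smc1a passed under 2 other settings, with each array centred on its 75th percentile (adjusted p = 0.0499) and with the spike-in split in the fit (adjusted p = 0.0454), which made 8 members. The difference between condensin and cohesin slopes was not tested. Leaving out tumours 5 and 7, the 2 farthest from the median Mki67 level, left 1 member with a slope that passed, Ncapg, and 44 genes in all with a positive one. Without tumours 3, 5 and 7, which are high in seminal vesicle genes, 0 members and 0 genes had a positive slope that passed, with 2682 genes at an unadjusted p under 0.05. The condensin slopes ran from 0.57 for Ncapd2 to 1.07 for Ncapg in the fit without tumours 5 and 7, and from 0.43 for Ncapd2 to 1.18 for Ncapg in the fit without tumours 3, 5 and 7. That of Smc1a was 0.27 in both.

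Within the 9 normal prostates, Ncaph was the only member with a slope that passed, 0.75 ± 0.14 (limma adjusted p = 0.0185), where 3.07% of all genes had a positive one. It rested on normal prostates 3 and 9, which had the lowest Mki67 levels, 5.39 and 5.19. Without them the slope was -0.02 ± 0.25 (adjusted p = 0.989) and 0 genes passed, with 1580 genes at an unadjusted p under 0.05. The slope was steeper in tumours than in normal prostate for 6 of the 10 members, all in condensin, where 2.8% of all genes were (limma interaction, chosen after the data were seen). Without normal prostates 3 and 9, 0% of all genes and no member passed that test. The prostate secretory mean was 12.33 on normal prostate 3 and 6.26 on normal prostate 9.

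**Figure D4:**
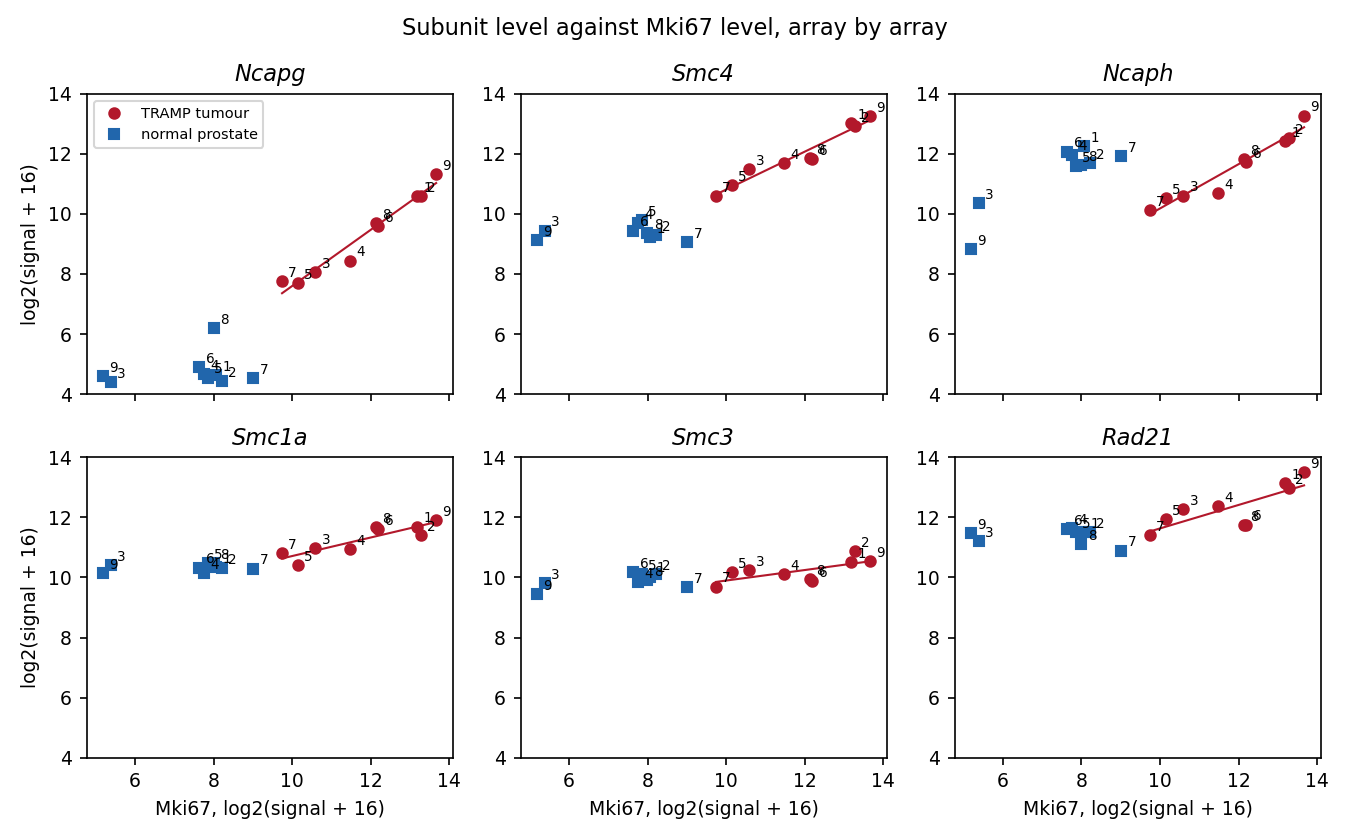
Level of 6 members against the level of Mki67, both as log2(signal + 16), with 1 point for each array and its replicate number (red circles, TRAMP tumours; blue squares, normal prostate; red line, least-squares fit over the tumours). Ncapg and Smc4 climb with Mki67 from levels above normal prostate, Ncaph climbs from levels below those of 7 normal prostates, and Smc3 is nearly level.

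By a rule that takes the 5 non-member genes with the highest Pearson correlation over the 9 tumours among 12768 genes, the mean of the condensin genes was most like Kif2c (r = 0.997), Cdc20, Cenpk, Prc1 and Knstrn (r = 0.992 each), which act at kinetochores, on the spindle or in mitotic exit. All 5 rose, by 2.30 to 3.24. The mean of the cohesin genes was most like Npat (r = 0.992), Ssb (r = 0.990), Plk4 (r = 0.988), Usp1 (r = 0.986) and Ezh2 (r = 0.986). Of these, Plk4, Usp1 and Ezh2 rose, by 2.58, 1.96 and 1.80, while Npat had 0.69 (limma adjusted p = 0.0519) and Ssb 0.40 (adjusted p = 0.206). The correlations describe 9 arrays that share a tissue mixture and carry no p-value.

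The other genes of the pathway were read from lists of 38 partners and regulators, of which 36 were measured and 33 passed the filter on low values. Of the 36, 21 rose, 1 fell and 14 did not pass the test, and 6 had every tumour above every normal prostate. Over all 18193 genes, 7.89% were higher, 8.54% were lower and 1.11% showed that separation. The same shares apply to the counts of each list below. The median log2 difference of the 36 genes was 0.79.

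Of 6 genes listed for acetylation and protection of cohesin, 4 rose and 2 did not pass, with a median log2 difference of 2.61. Esco2, the acetyltransferase that acts on SMC3 in S phase, rose (limma adjusted p = 2.25e-05). It was 6.82 to 11.26 in TRAMP tumours, where 1 was dim, and dim on all 9 normal prostates. With dim values raised to the percentile it was 4.01-fold higher in tumours, which is not a strict bound. Sgo2a, a shugoshin that shields cohesin at centromeres, was also dim on all 9 normal prostates and at least 5.25-fold higher (adjusted p = 0.000337). Cdca5, which codes for sororin, rose by 2.58 ± 0.39 (adjusted p = 0.000295), and Sgo1, the other shugoshin, rose by 2.65 ± 0.48 (adjusted p = 0.00114). Sgo1 was dim on 5 normal prostates and Cdca5 on 4. Esco1, the acetyltransferase active outside S phase, had -0.14 ± 0.17 (adjusted p = 0.621), and the deacetylase Hdac8 had 0.10 ± 0.18 (adjusted p = 0.771).

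Among the loaders and release factors, Pds5b rose by 1.43 ± 0.31 (limma adjusted p = 0.00412) and Pds5a by 0.52 ± 0.16 (adjusted p = 0.0289). These scaffold proteins bind the kleisin and act in both holding and releasing cohesin. The loader Nipbl had 0.34 ± 0.13 (adjusted p = 0.0965), its partner Mau2 0.03 ± 0.24 (adjusted p = 0.945) and the release factor Wapl -0.24 ± 0.17 (adjusted p = 0.344). None of these 3 passed.

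Stag1, 1 of the alternative subunits that bind RAD21, rose by 0.64 ± 0.19 (limma adjusted p = 0.0247), and Stag2, the other, had 0.46 ± 0.18 (adjusted p = 0.0851). The difference between them was not tested. Ctcf, the factor that stops cohesin at loop boundaries, had 0.61 ± 0.23 (adjusted p = 0.0743).

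Of the genes for cohesin cleavage, Espl1, which codes for separase, rose by 1.89 ± 0.41 (limma adjusted p = 0.00412). Espl1 was dim on 7 normal prostates and 1 tumour. Pttg1, which codes for its inhibitor securin, had -0.58 ± 0.34 (adjusted p = 0.264), with levels of 9.51, 12.27 and 12.71 (lowest, median, highest) in TRAMP tumours and 11.86, 12.40 and 12.97 in normal prostate. The meiotic subunit Rec8 rose by 1.49 ± 0.48 (adjusted p = 0.042) and was dim on 4 normal prostates and 1 tumour. Stag3 had 0.76 ± 0.38 (adjusted p = 0.19) and was dim on 8 normal prostates and 7 tumours. Smc1b was dim on all 18 arrays.

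Of 7 genes for the related SMC5/6 complex and for SMCHD1, an SMC protein of the inactive X chromosome, 5 rose, 1 fell and 1 did not pass. Smc6 rose by 1.66 ± 0.28 (limma adjusted p = 0.000671), Nsmce2, its SUMO ligase, by 0.82 ± 0.20 (adjusted p = 0.00806), and Nsmce4a by 0.92 ± 0.26 (adjusted p = 0.0195). Nsmce3, a kleisin-binding subunit, fell by 0.86 (SE 0.22, adjusted p = 0.0109) and was the 1 gene of the lists that was lower. Its levels were 9.32, 10.21 and 10.58 (lowest, median, highest) in TRAMP tumours, against a median of 11.07 in normal prostate, where the lowest array was at 9.63.

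Of 9 measured partners on mitotic chromosomes, 7 rose and 2 did not pass. Mki67 rose by 4.37 ± 0.60 (limma adjusted p = 0.000142), Cdk1, the mitotic kinase that phosphorylates condensin, by 3.42 ± 0.51 (adjusted p = 0.000256), Aurkb by 2.21 ± 0.38 (adjusted p = 0.000771) and Top2a, the topoisomerase that untangles sister chromatids beside condensin, by 2.50 ± 0.51 (adjusted p = 0.00262). For Mki67, Cdk1 and Aurkb every tumour lay above every normal prostate, and Aurkb was dim on 6 normal prostates. Mcph1, which holds condensin II back in interphase, had 0.51 ± 0.18 (adjusted p = 0.0583), and Akap8, an anchor protein of mitotic chromosomes, had 0.05 ± 0.16 (adjusted p = 0.861).

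**Figure D5:**
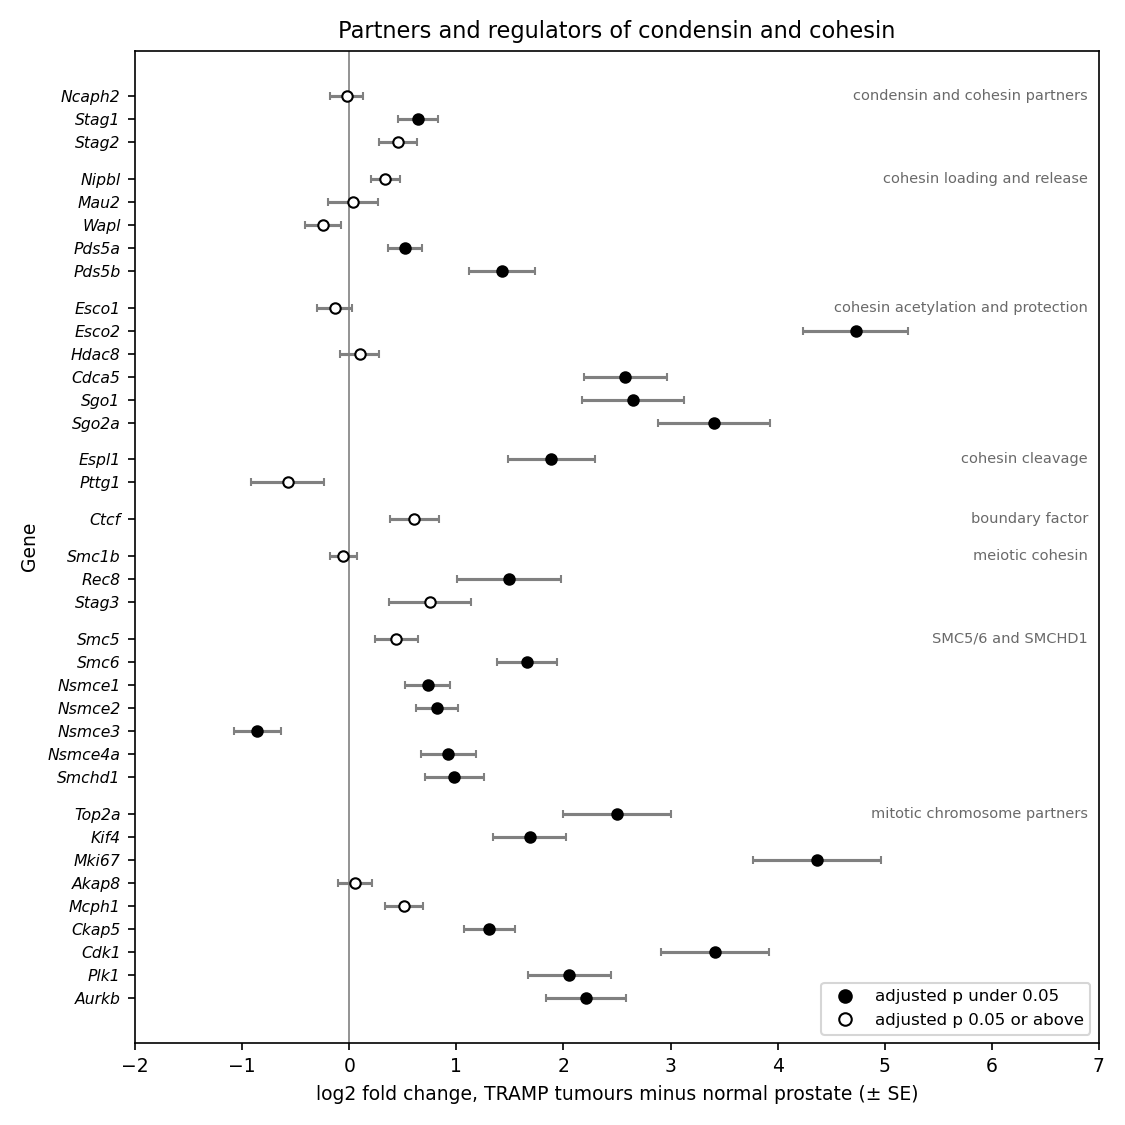
Log2 fold change, TRAMP tumours minus normal prostate, with its standard error, of 36 partners and regulators grouped by role (filled circles, adjusted p under 0.05; open circles, 0.05 or above). Esco2, Mki67, Cdk1 and Sgo2a lie furthest to the right, and Nsmce3 is the only filled circle left of 0.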

How the data were processed

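Each of the 18 arrays is 1 sample, and groups came from the sample labels. The deposited values are linear intensities, 1 for each probe set, made by the authors with MAS5, per the submitters' processing notes (version not given in the sources used here). The 2% trimmed mean was 500 on every array, so each was scaled by 1 factor. The number of arrays limits the precision.

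Of 45101 probe sets, 34945 name 1 gene in the platform table. Levels are log2(signal + 16). Each gene was read from the brightest, by mean, of the probe sets that name it alone. Groups were compared with limma 3.58.1 (R 4.3.3; lmFit, eBayes, two-sided) over 18193 genes or 45037 non-control probe sets, with Benjamini-Hochberg adjustment at 0.05. The difference between slopes on Mki67 was fitted as an interaction, added after the data were seen. Alternatives changed the added constant, filter, normalization, probe set choice, test, covariates and arrays. The members and lists were chosen with earlier results of these data known. Named from the lists were up to 4 genes each by absolute t, any whose groups did not overlap, and others with a role beside a member, chosen after their values were seen. On simulated data over 18193 genes, the group comparison recovered 51% of 100 genes changed by 1 log2 unit and 92% of 100 changed by 2, with 6 false calls among 149.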

Additional observations from a re-analysis of the deposited data

Results flagged for a closer look

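In normal prostate, Ncapg was far higher on array 8 than on the others: 6.20, against 4.92 on the next highest array, a gap of 0.71 of the range of the group. All 9 values were dim. Chance gives about 1 such array in every 20 groups, and 20 groups were examined.

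The slope on Mki67 was steeper in TRAMP tumours than in normal prostate for 6 condensin genes, by a limma interaction term over all 18192 genes, where 2.8% of genes were steeper in tumours. The difference, in log2 units per log2 unit of Mki67, was 1.05 ± 0.19 for Smc2 (adjusted p = 0.00371), 0.63 for Smc4, 0.62 for Ncapd2, 0.85 for Ncapg, 0.68 for Ncapd3 and 0.77 for Ncapg2. Without normal prostates 3 and 9, which set the low end of Mki67 in normal tissue, 0 genes passed (1349 at an unadjusted p under 0.05), and the 6 differences ran from 0.42 for Ncapd2 to 1.70 for Ncapg2. For Ncaph the difference was -0.02 (adjusted p = 0.97).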

How the results depend on the processing

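The count of members higher in tumours was 8 under all settings tried except 3: 0 on the arrays with dim spike-in controls alone, 7 of 9 tested with a filter at the 60th percentile, which Ncapg did not pass, and 9 without normal prostate 9 and tumours 3, 5, 6, 7 and 8. Of all genes, 1436 were higher and 1554 lower. These counts were 847 and 923 on the bright arrays, 0 and 1 on the dim arrays, 706 and 717 with the actin 3′ to 5′ ratio as a covariate, and 2383 and 2605 without normal prostate 9 and tumours 3, 5, 6, 7 and 8. Centring on the 75th percentile gave 1146 and 2009, and on housekeeping genes 987 and 1937, with the median of all genes at -0.12. Leaving out 1 array at a time gave 1146 to 1646 higher, 1214 to 1758 lower and 8 members throughout. The cause of these shifts was not tested. The actin 3′ to 5′ log2 ratio averaged 1.12 ± 0.51 in TRAMP tumours and 1.71 ± 0.69 in normal prostate (SD, n = 9 each). With that ratio in the fit, Rad21 passed narrowly (limma adjusted p = 0.0499). On the bright arrays Smc1a (adjusted p = 0.0488) and Ncapd3 (adjusted p = 0.0435) also passed narrowly.

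The replicate block gave 1213 higher, 1317 lower and 8 members. The labels do not say whether a shared number marks a pair. The deviations of same-numbered arrays correlated at -0.081 to 0.21, with 1 of 9 pairs above 0.1. Of the 9, 1 correlated best with its own number. Low correlations cannot exclude a pairing, because paired samples need not deviate alike.

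The Ncaph difference was below 0 with array quality weights (-0.35), on the bright arrays (-0.30), without tumour 9 (-0.06) and without normal prostate 9 (-0.16). It ran from -0.16 to 0.33 with 1 array left out, and passed the test in none of these. Positive slopes on Mki67 in tumours (503 genes, 7 members) gave 8 members with 75th percentile centring or the spike-in split in the fit, where Smc1a joined, and fell to 44 genes and 1 member without tumours 5 and 7, and to 0 and 0 without tumours 3, 5 and 7. Negative slopes (471 genes) fell to 22 and 21. Without normal prostates 3 and 9, the count of called slopes in normal prostate was 0, as was that of steeper slopes in tumours. There the normal slopes were -0.43 for Smc4, 0.10 for Ncapd2, -0.27 for Ncapg, -0.017 for Ncaph, -0.81 for Ncapg2, -0.012 for Smc1a and -0.27 for Smc3, opposite in sign to those with all 9 and none passing.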

Other observations

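Genes like Ncaph were looked for after its levels had been seen. Over the 9 normal prostates, the 5 of 12768 genes with the highest Pearson correlation with Ncaph were Pknox2 (r = 0.997), Treh (r = 0.994), Rhpn2 (r = 0.992), Smco4 (r = 0.991) and Gne (r = 0.991). Gne, which codes for the enzyme that starts sialic acid synthesis, averaged 8.75 ± 0.999 in TRAMP tumours and 12.55 ± 1.27 in normal prostate (SD, n = 9 each), a log2 difference of -3.80 (limma adjusted p = 0.000115). Treh, which codes for trehalase, averaged 6.04 ± 1.85 in TRAMP tumours and 9.05 ± 1.28 in normal prostate, a difference of -3.01 (adjusted p = 0.00636). All 5 were lower in tumours, and on normal prostates 3 and 9 all 5 lay below the lowest of the other 7. Over the 9 tumours, the genes most like Ncaph were others: Rnf168 (r = 0.991), Zwilch, Rad54l, Pole2 and Fignl1, which act in DNA repair, DNA replication or at kinetochores. Of these, Fignl1 rose by 3.35, Zwilch by 2.54, Pole2 by 2.07 and Rad54l by 1.56, while Rnf168 had 0.59 (adjusted p = 0.0614). So the genes nearest to Ncaph in normal prostate were lower in tumours, and 4 of the 5 nearest in tumours were higher, with Ncaph itself at 0.16.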
